A study of Mus musculus with 18 samples.

Results

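Toll-like receptors are the membrane sensors of innate immunity that read microbial lipids, proteins and nucleic acids. The family was followed here through the 10 listed mouse genes Tlr1, Tlr2, Tlr3, Tlr4, Tlr5, Tlr6, Tlr7, Tlr8, Tlr9 and Tlr13, which are 10 of the 18193 genes that a probe set on the array names alone. Where a gene had several probe sets, the one with the highest average signal was taken as its main reading. Tlr3, Tlr4 and Tlr7 had 6 further probe sets between them, so 16 probe sets in all were followed. No filter on low values was applied, so all 10 genes were tested in every comparison.

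The arrays were Affymetrix mouse whole-genome arrays, 1 per mouse, hybridised with RNA from whole lungs of 18 male mice aged 16 weeks. The mice were A/J, a strain known for reactive airways, or C57BL/6, and there were 3 mice in each of 6 groups. Every mouse, including those of the PBS groups, had been sensitised by 3 intraperitoneal injections of 100 µg ovalbumin in alum. From 7 days after sensitisation, the mice inhaled an aerosol for 30 min on 3 days. In the resiquimod groups (A/J and C57BL/6) the aerosol held 1% ovalbumin, and the mice also received 3 intraperitoneal injections of 100 µg resiquimod (S-28463 or R-848), a small-molecule agonist of Tlr7. The ovalbumin groups (A/J and C57BL/6) inhaled 1% ovalbumin without resiquimod, and the PBS groups (A/J and C57BL/6) inhaled phosphate-buffered saline. Resiquimod without ovalbumin was not analysed here, and the labels name no vehicle injection for the other groups, so an effect of the injection itself cannot be told apart from that of the compound.

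As background, the family divides by where its members sit and what they bind. Tlr3 (double-stranded RNA), Tlr7 and Tlr8 (single-stranded RNA), Tlr9 (unmethylated CpG DNA) and Tlr13 (bacterial ribosomal RNA, a receptor that humans lack) signal from endosomes. Tlr2 with Tlr1 or Tlr6 (bacterial lipopeptides), Tlr4 with its partner Ly96 (lipopolysaccharide) and Tlr5 (flagellin) act mainly at the cell surface. All except Tlr3 signal through the adaptor Myd88, while Tlr3 and internalised Tlr4 use Ticam1. In the lung, the receptors are known from alveolar macrophages, dendritic cells, B cells and epithelium.

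The deposited values were log2 expression from the RMA method, with a range of 2.00 to 14.03 and array medians between 4.77 and 4.80. Arrays of the same group correlated at Pearson's r between 0.987 and 0.997. On 8 arrays, markers of squamous epithelium averaged 7.39 to 8.48, against 3.70 to 4.26 on the other 10. At least 1 such array lay in each group, with 2 each in the A/J ovalbumin and C57BL/6 PBS groups. Markers of skeletal muscle were high on the same 8 arrays (8.64 to 9.98) and on A/J PBS replicate 3 (8.48), against 4.05 to 5.78 on the rest. That replicate stays in the fits below that leave out the arrays with squamous transcripts. Those fits keep only replicate 2 of the A/J ovalbumin and of the C57BL/6 PBS group, so their changes are given without p-values. The C57BL/6 PBS lungs stood apart in 2 genes chosen after their values were seen. Nnt, a mitochondrial transhydrogenase that is truncated in the C57BL/6J substrain, was at 6.90 to 7.27 there and at 8.05 to 8.52 on the other 15 arrays. Wdfy1, which has been described as an adaptor of Tlr3 and Tlr4 signalling, was at 6.12 to 6.47 there and at 7.30 to 7.81 elsewhere. In the comparisons with C57BL/6 PBS lungs, treatment or strain therefore cannot be told apart from a difference of substrain. Epithelial markers of lung (8 genes, Sftpc and Scgb1a1 among them) averaged 10.2 to 10.5 in all 6 groups. In whole lung, more cells of a type and more RNA per cell cannot be told apart.

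The promoter windows of the receptors that moved together and of a neighbour that did not are shown because they are the regulatory sequence nearest to these measurements. RefSeq windows on build GRCm38.p6, each running from 250 bases before to 50 bases after an annotated start, were found for 8 of the 10 genes (10 windows). Tlr4 and Tlr7 had no entry in the table. Capitals mark matches on either strand to the PU.1-type purine box GAGGAAG, the core of the interferon-stimulated response element GAAANNGAA, the gamma-interferon activation site TTCNNNGAA or the AP-1 site TGANTCA.
Tlr13, chrX:106143025-106143324, plus strand: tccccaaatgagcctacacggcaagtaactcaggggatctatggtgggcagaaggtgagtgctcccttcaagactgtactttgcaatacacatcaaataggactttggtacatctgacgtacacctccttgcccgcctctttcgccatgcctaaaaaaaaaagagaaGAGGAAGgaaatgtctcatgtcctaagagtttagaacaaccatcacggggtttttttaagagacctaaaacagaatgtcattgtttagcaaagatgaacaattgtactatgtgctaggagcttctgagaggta
Tlr1, chr5:64933509-64933808, minus strand: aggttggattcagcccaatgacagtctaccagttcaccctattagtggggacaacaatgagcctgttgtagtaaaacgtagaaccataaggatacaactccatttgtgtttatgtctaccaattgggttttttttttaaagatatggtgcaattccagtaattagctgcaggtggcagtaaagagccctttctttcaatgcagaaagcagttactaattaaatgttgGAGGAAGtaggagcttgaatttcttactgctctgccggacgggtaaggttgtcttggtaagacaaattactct
Tlr1, other start, chr5:64932650-64932949, minus strand: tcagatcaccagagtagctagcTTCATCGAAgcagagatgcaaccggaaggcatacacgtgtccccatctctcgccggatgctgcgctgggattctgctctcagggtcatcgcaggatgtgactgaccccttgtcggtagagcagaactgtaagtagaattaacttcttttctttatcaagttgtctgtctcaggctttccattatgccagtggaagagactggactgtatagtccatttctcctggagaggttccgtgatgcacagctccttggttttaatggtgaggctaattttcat
Tlr6, chr5:64959117-64959416, minus strand: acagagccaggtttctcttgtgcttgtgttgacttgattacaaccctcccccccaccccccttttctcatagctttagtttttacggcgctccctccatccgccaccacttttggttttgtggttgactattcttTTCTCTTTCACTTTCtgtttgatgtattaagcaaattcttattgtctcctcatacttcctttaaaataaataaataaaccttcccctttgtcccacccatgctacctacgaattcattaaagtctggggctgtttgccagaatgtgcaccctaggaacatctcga
Tlr6, other start, chr5:64959999-64960298, minus strand: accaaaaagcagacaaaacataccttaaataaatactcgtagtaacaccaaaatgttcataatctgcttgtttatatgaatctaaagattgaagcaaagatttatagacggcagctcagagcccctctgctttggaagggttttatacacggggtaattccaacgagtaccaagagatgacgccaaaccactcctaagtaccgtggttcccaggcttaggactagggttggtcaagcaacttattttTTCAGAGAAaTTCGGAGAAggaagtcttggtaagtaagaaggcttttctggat
The Tlr13 window held GAGGAAG at 83 bases before the start, and the first Tlr1 window held it at 23 bases before. The second Tlr1 window and the second Tlr6 window held the gamma-interferon activation site, 2 copies in the case of Tlr6. The first Tlr6 window held 2 overlapping matches to the interferon-stimulated response element core. Of 32851 windows of the same length, 13.6% held the purine box, 8.56% the response element core, 8.30% the activation site and 7.81% the AP-1 site. Of the 10 windows of the receptors, 3 held the purine box (Tlr1, Tlr9 and Tlr13), 2 the response element core (Tlr6 and Tlr8), 3 the activation site (Tlr1, Tlr6 and Tlr8) and 1 the AP-1 site (Tlr9). A match is a run of letters and not a shown binding site. Tlr1 and Tlr6 are neighbours on chromosome 5, and Tlr7 and Tlr8 on chromosome X, with 0 protein-coding genes between the members of each pair.

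Resiquimod raised Tlr13 and Tlr7 in lungs of both strains and Tlr1 in C57BL/6 lungs, set against ovalbumin alone, while none of the 10 genes was called lower. In A/J lungs 2 of 10 genes were called higher and 0 lower (limma, Benjamini-Hochberg adjusted p under 0.05), where 4.38% of all genes were called higher and 5.39% lower. In C57BL/6 lungs 3 of 10 were called higher and 0 lower, where 5.80% of all genes were called higher and 4.60% lower. The median change of the 10 genes was 0.11 in A/J and 0.20 in C57BL/6 on the log2 scale, beside -0.0026 and -0.022 over all 18193 genes.

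Tlr13, the receptor for bacterial ribosomal RNA, had the widest change of the family (probe set 1457753_at). It read 7.19, 7.26 and 7.01 in A/J resiquimod lungs, 5.82, 5.70 and 6.03 in A/J ovalbumin lungs, and 5.69, 5.77 and 5.82 in A/J PBS lungs. In C57BL/6 it read 7.37, 7.32 and 7.44 in resiquimod lungs, 5.76, 6.05 and 6.10 in ovalbumin lungs, and 5.80, 5.54 and 6.06 in PBS lungs. All 6 resiquimod arrays lay above all 12 others, and the ovalbumin and PBS arrays overlapped in both strains. In A/J and C57BL/6, resiquimod arrays lay wholly above ovalbumin arrays for 12.1% and 14.5% of all genes. They lay wholly above PBS arrays for 14.9% and 18.3%. The share over all 6 against 12 arrays was not computed. Against ovalbumin alone the increase was 1.30 ± 0.12 (SE) in A/J lungs, a 2.47-fold difference (limma adjusted p = 4.2e-06, n = 3 each). In C57BL/6 lungs it was 1.41 ± 0.12, a 2.65-fold difference (limma adjusted p = 1.8e-06, n = 3 each). The strains' increases differed by -0.10 (95% interval -0.47 to 0.26, limma adjusted p = 0.859). Without the 8 arrays that held squamous transcripts, the increases were 1.44 and 1.33.

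Tlr7, the receptor that resiquimod itself engages, read 5.76, 5.72 and 5.59 in A/J resiquimod lungs (probe set 1422010_at). The A/J ovalbumin lungs read 5.03, 5.07 and 4.95, and the A/J PBS lungs 4.95, 4.91 and 5.01. In C57BL/6 it read 6.12, 6.36 and 5.85 in resiquimod lungs, 5.18, 4.95 and 4.96 in ovalbumin lungs, and 4.90, 4.73 and 4.86 in PBS lungs. The resiquimod arrays again lay above every other array, and, as for Tlr13, all 3 C57BL/6 resiquimod arrays lay above all 3 of A/J. The latter held for 16.1% of all genes, and for the former the shares within each strain are those given for Tlr13. The increase over ovalbumin alone was 0.67 ± 0.10 in A/J lungs, 1.59-fold (limma adjusted p = 5.9e-04), and 1.08 ± 0.10 in C57BL/6 lungs, 2.11-fold (limma adjusted p = 5.7e-06). The difference between these increases, -0.41 (95% interval -0.72 to -0.096), had an unadjusted p of 0.0135 and was not called in limma (adjusted p = 0.227). Without the arrays with squamous transcripts the A/J increase was 0.59, and that in C57BL/6 was 1.03.

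The other Tlr7 probe sets gave weak readings. Probe set 1449640_at ranged from 3.27 to 3.85 and 1419848_x_at from 2.82 to 3.53 over the 18 arrays, where the 25th percentile of all values was 3.33. Both ran with the main probe set (r = 0.69 and 0.54 over 18 arrays that share the 6 groups). Their changes in resiquimod lungs against ovalbumin lungs were 0.17 and 0.058 in A/J, and 0.24 and 0.39 in C57BL/6, and none was called. The Tlr7 increase thus rests on 1 probe set.

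Tlr1, which pairs with Tlr2 to bind triacylated lipopeptides, read 5.78, 6.21 and 5.14 in A/J resiquimod lungs and 5.34, 5.01 and 5.11 in A/J ovalbumin lungs (probe set 1449049_at). In C57BL/6 lungs it read 5.97, 6.18 and 6.12 with resiquimod and 5.10, 5.16 and 5.02 with ovalbumin alone. In C57BL/6 the resiquimod arrays all lay above the ovalbumin arrays, as for 14.5% of all genes. In A/J, resiquimod replicate 3 lay within the ovalbumin range and the other two above it. The increase was 1.00 ± 0.19 in C57BL/6 lungs, 2.00-fold (limma adjusted p = 0.0031). In A/J lungs the difference of 0.55 ± 0.19 was not called (limma adjusted p = 0.0983). Without A/J resiquimod replicate 3 it was 0.84 and called (limma adjusted p = 0.0027), and without the arrays with squamous transcripts the C57BL/6 difference was 0.95.

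The remaining 7 genes showed no called change with resiquimod against ovalbumin alone in either strain. Tlr3 was 0.20 ± 0.10 above ovalbumin lungs in A/J and 0.25 ± 0.10 in C57BL/6 (limma adjusted p = 0.281 and 0.163). Tlr4 was at -0.28 ± 0.11 and -0.20 ± 0.11 (limma adjusted p = 0.165 and 0.320), with all resiquimod arrays below all ovalbumin arrays in each strain. The same held for 13.7% of all genes in A/J and 16.1% in C57BL/6. In C57BL/6, the resiquimod arrays also lay wholly above the ovalbumin arrays for Tlr2 and Tlr3, as for 14.5% of all genes, and wholly below them for Tlr5. Tlr2, Tlr5, Tlr6, Tlr8 and Tlr9 had 95% intervals that included 0 in both strains. For Tlr9 the interval ran from -0.16 to 0.23 in A/J and from -0.23 to 0.16 in C57BL/6. For Tlr8 it was wider, from -0.49 to 0.37 and from -0.13 to 0.74. The 4 endosomal receptors other than Tlr13 therefore did not share a called increase: of them only Tlr7 was called in the fit as described.

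**Figure D1:**
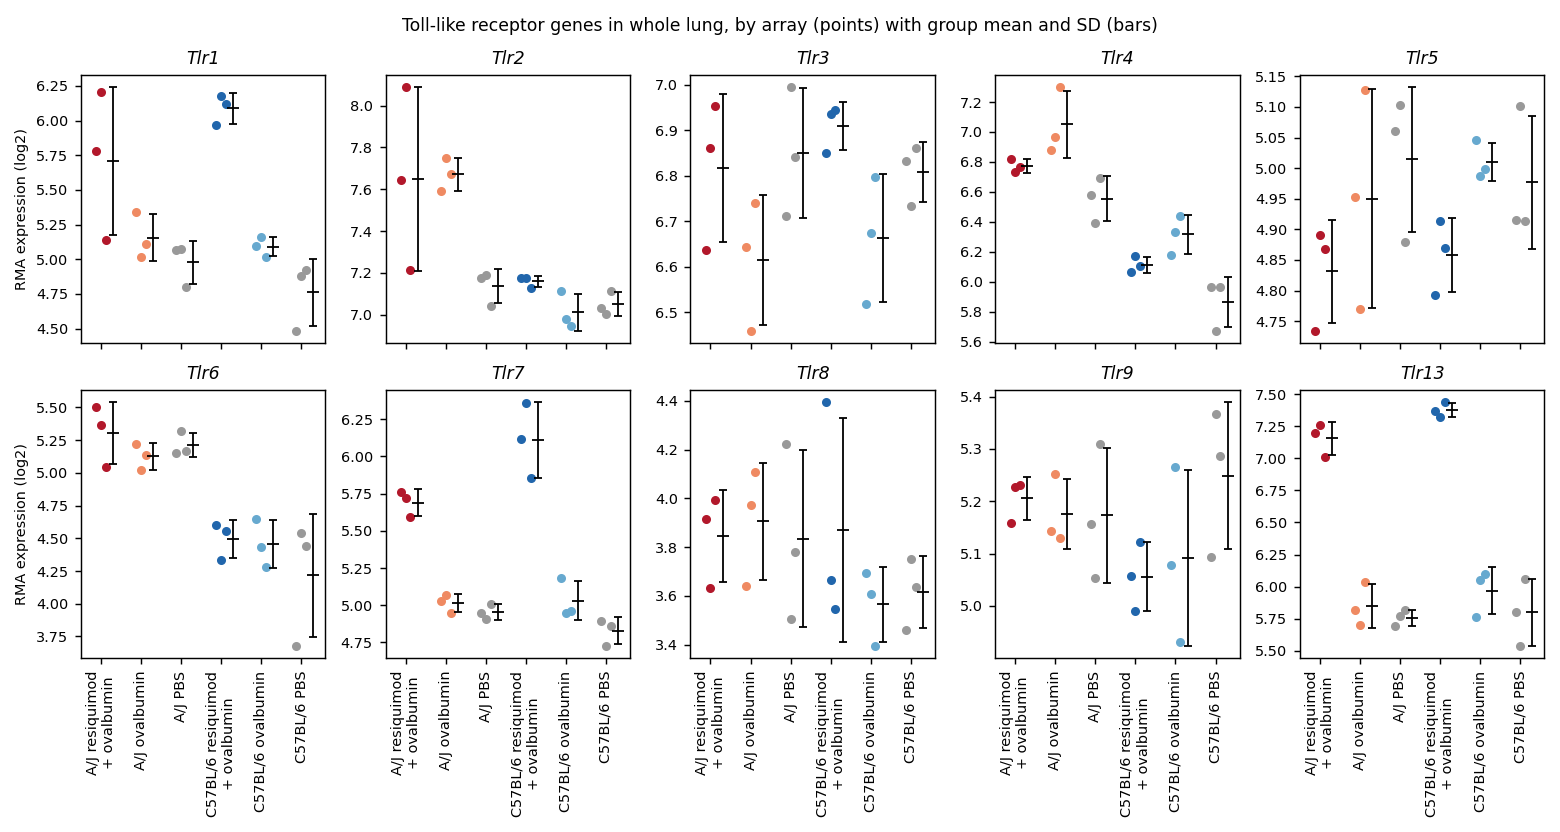
Each panel plots the log2 RMA expression (vertical axis, scaled per gene) of 1 Toll-like receptor gene on the 18 arrays, as points, with the group mean and SD as bars (n = 3). Groups run from resiquimod with ovalbumin to ovalbumin to PBS, first in A/J and then in C57BL/6. Each gene is shown by its main probe set. Tlr13 and Tlr7 separate all resiquimod arrays from the others, Tlr6 separates all A/J arrays from all C57BL/6 arrays, Tlr4 separates the strains within each treatment, and Tlr1 has 1 low A/J resiquimod array at 5.14.

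**Figure D2:**
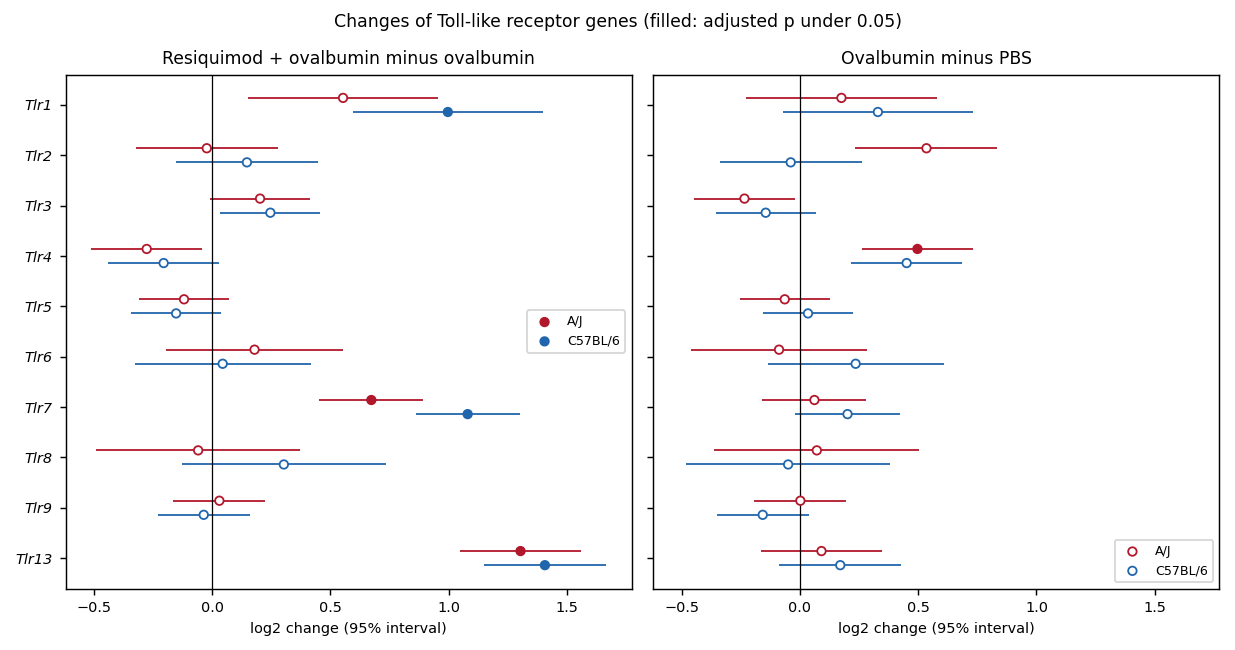
Points give the log2 change of each gene, with its 95% interval, for resiquimod with ovalbumin minus ovalbumin (left) and ovalbumin minus PBS (right), in A/J (red) and C57BL/6 (blue). Filled points passed an adjusted p of 0.05: Tlr7 and Tlr13 in both strains and Tlr1 in C57BL/6 on the left, and Tlr4 in A/J on the right.

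Against PBS lungs, the resiquimod lungs also differed in Tlr2 and Tlr1 of A/J. In A/J, 4 of 10 genes were called higher and 0 lower, where 5.86% of all genes were called higher and 5.27% lower. These were Tlr13 (1.39 ± 0.12), Tlr7 (0.73 ± 0.10), Tlr1 (0.73 ± 0.19) and Tlr2 (0.51 ± 0.14), with limma adjusted p-values of 1.8e-06, 2.2e-04, 0.0241 and 0.0335. Without the arrays with squamous transcripts the Tlr1 and Tlr2 changes were 0.74 and 0.53. Both calls were lost on leaving out single arrays. For Tlr1 these were A/J PBS replicate 3 and A/J resiquimod replicates 1 and 2 (changes of 0.48 to 0.69, limma adjusted p from 0.0757 to 0.116), and for Tlr2 each A/J PBS replicate and A/J resiquimod replicates 1 and 2 (0.29 to 0.54, limma adjusted p from 0.0680 to 0.127). In C57BL/6, 3 of 10 were called higher and 0 lower, where 9.61% of all genes were called higher and 7.16% lower. These were Tlr13 (1.58 ± 0.12), Tlr1 (1.33 ± 0.19) and Tlr7 (1.28 ± 0.10), with limma adjusted p-values of 2.5e-07, 1.5e-04 and 4.2e-07. Without the arrays with squamous transcripts, the C57BL/6 difference in Tlr1 was 1.17. Of the other probe sets, 1418163_at of Tlr4 was called higher in C57BL/6 (0.35 ± 0.11, limma adjusted p = 0.0393), where the main one was at 0.25 (limma adjusted p = 0.180). This comparison shares the resiquimod arrays with the one above, so it is no separate support for it.

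With ovalbumin challenge alone, Tlr4, the lipopolysaccharide receptor, was the 1 member called, in A/J and by 1 of its 4 probe sets. In A/J lungs 1 of 10 genes was called higher and 0 lower, where 3.20% of all genes were called higher and 1.18% lower. In C57BL/6 lungs 0 of 10 were called either way in limma (1 at an unadjusted p under 0.05), where 1.44% of all genes were called higher and 0.154% lower. The median change of the 10 genes was 0.066 in A/J and 0.10 in C57BL/6, beside -0.0043 and 0.0047 over all genes.

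Tlr4 read 6.88, 6.97 and 7.30 in A/J ovalbumin lungs and 6.58, 6.39 and 6.69 in A/J PBS lungs (probe set 1418162_at). In C57BL/6 it read 6.18, 6.33 and 6.44 in ovalbumin lungs and 5.96, 5.67 and 5.96 in PBS lungs. The ovalbumin arrays lay above the PBS arrays in both strains, as for 12.4% of all genes in A/J and 10.6% in C57BL/6. The increase was 0.50 ± 0.11 in A/J (limma adjusted p = 0.0194), and a difference of nearly the same size in C57BL/6, 0.45 ± 0.11, was not called (limma adjusted p = 0.0668). Without A/J ovalbumin replicate 3, which enters that comparison only through the shared spread, it was called (limma adjusted p = 0.0287). By the other Tlr4 probe sets the A/J difference was 0.38 for 1418163_at, 0.14 for 1442827_at and 0.14 for 1430695_at, none called (limma adjusted p = 0.0658, 0.581 and 0.599). By the main one, the strains' differences differed by 0.046 (95% interval -0.29 to 0.38, limma adjusted p = 0.992). In A/J, the call was lost without A/J PBS replicate 1 or 2, without A/J ovalbumin replicate 3 and with the arrays of both A/J groups alone (changes of 0.37 to 0.51, limma adjusted p from 0.0565 to 0.115). Without the arrays with squamous transcripts the A/J change was 0.43.

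Tlr2, the shared partner of Tlr1 and Tlr6, read 7.59, 7.75 and 7.67 in A/J ovalbumin lungs and 7.18, 7.19 and 7.04 in A/J PBS lungs (probe set 1419132_at). The A/J ovalbumin arrays all lay above the A/J PBS arrays, as for 12.4% of all genes. The difference of 0.53 ± 0.14 fell short of the threshold (limma adjusted p = 0.0511). It was called without A/J resiquimod replicate 2 or 3 (limma adjusted p = 0.0037 and 0.0042) and in 6 of 8 other alternatives. In C57BL/6 lungs Tlr2 read 7.11, 6.98 and 6.95 with ovalbumin and 7.03, 7.01 and 7.12 with PBS, a difference of -0.039 (95% interval -0.34 to 0.26). The strains' ovalbumin differences in Tlr2 differed by 0.57 (95% interval 0.15 to 1.00), which was not called in limma (unadjusted p = 0.0111, adjusted p = 0.762). Of all genes, 0.0605% had a called strain difference in the ovalbumin effect and 1.24% in the resiquimod effect, and 0 of the 10 receptors did in either (1 in each at an unadjusted p under 0.05, Tlr2 and Tlr7).

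Between the strains, Tlr6, and Tlr4 by its main probe set only, were called higher in A/J lungs under all 3 treatments, and Tlr2 in challenged lungs. Several of these calls were lost in other fits, as given below. Among resiquimod lungs 3 of 10 genes were called higher and 1 lower in A/J than in C57BL/6, where 7.54% of all genes were called higher and 8.92% lower. Among ovalbumin lungs 3 were called higher and 0 lower, where 4.29% of all genes were called higher and 4.98% lower. Among PBS lungs 2 were called higher and 0 lower, where 4.46% of all genes were called higher and 4.56% lower.

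Tlr6, which binds diacylated lipopeptides with Tlr2, read 5.50, 5.37 and 5.04 in A/J and 4.60, 4.33 and 4.56 in C57BL/6 resiquimod lungs (probe set 1421352_at). In ovalbumin lungs it read 5.22, 5.02 and 5.14 in A/J and 4.65, 4.43 and 4.28 in C57BL/6. In PBS lungs it read 5.16, 5.32 and 5.17 in A/J and 3.68, 4.54 and 4.44 in C57BL/6. All 9 A/J arrays lay above all 9 C57BL/6 arrays. Within resiquimod, ovalbumin and PBS lungs, the A/J arrays lay wholly above for 16.3%, 12.1% and 14.7% of all genes. The share over all 9 against 9 arrays was not computed. The strain difference was 0.81 ± 0.18 with resiquimod, 0.67 ± 0.18 with ovalbumin and 1.00 ± 0.18 with PBS (limma adjusted p = 0.0044, 0.0218 and 0.0011). The ovalbumin call was lost without A/J ovalbumin replicate 1 or 3 and without C57BL/6 ovalbumin replicate 2 or 3 (differences of 0.59 to 0.67, limma adjusted p from 0.0634 to 0.0953). Without the arrays with squamous transcripts the ovalbumin difference was 0.66. Tlr6 has 1 probe set on the array. Tlr1, its neighbour on chromosome 5, had no called strain difference, except that without A/J resiquimod replicate 2 it was lower in A/J resiquimod lungs (-0.63, limma adjusted p = 0.0202).

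Tlr4 by its main probe set was higher in A/J by 0.66 ± 0.11 with resiquimod, 0.73 ± 0.11 with ovalbumin and 0.69 ± 0.11 with PBS (limma adjusted p = 4.8e-04, 2.5e-04 and 4.4e-04), and the strains did not overlap within a treatment. The A/J arrays lay wholly above those of C57BL/6 for 16.3%, 12.1% and 14.7% of all genes. The other Tlr4 probe sets did not bear out the strain difference. Probe set 1418163_at, which ran with the main one at r = 0.73 over 18 arrays, differed by 0.028, 0.30 and 0.20. Probe set 1442827_at, at r = 0.046, differed by -0.055, -0.15 and 0.027, and the weak 1430695_at, between 2.60 and 3.16 on all arrays, by 0.17, 0.28 and 0.16. None of these 9 differences was called (limma adjusted p from 0.107 to 0.932). Without the arrays with squamous transcripts the ovalbumin difference by the main probe set was 0.58. The strain difference in Tlr4 thus holds for 1 of 4 probe sets.

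Tlr2 was higher in A/J by 0.49 ± 0.14 among resiquimod lungs and 0.66 ± 0.14 among ovalbumin lungs (limma adjusted p = 0.0278 and 0.0057), while PBS lungs differed by 0.085 (95% interval -0.22 to 0.38). The resiquimod call rested on A/J replicates at 7.64, 8.09 and 7.21 against 7.17, 7.18 and 7.13 in C57BL/6, and without A/J resiquimod replicate 2 the difference was 0.27 and not called (limma adjusted p = 0.117). The call was also lost without A/J replicate 1 or any 1 C57BL/6 resiquimod array (0.47 to 0.50, limma adjusted p from 0.0605 to 0.0823). Without the arrays with squamous transcripts, the Tlr2 difference was 0.50 with resiquimod and 0.78 with ovalbumin. Tlr7 was lower in A/J among resiquimod lungs, by -0.42 ± 0.10 (limma adjusted p = 0.0106). Without C57BL/6 resiquimod replicate 2 that difference was -0.30 (limma adjusted p = 0.0636), and without A/J resiquimod replicate 3 it was -0.37 (limma adjusted p = 0.0547). Without the arrays with squamous transcripts it was -0.33. Among ovalbumin and PBS lungs Tlr7 differed between the strains by -0.013 and 0.13, with 95% intervals of -0.23 to 0.21 and -0.093 to 0.35.

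**Figure D3:**
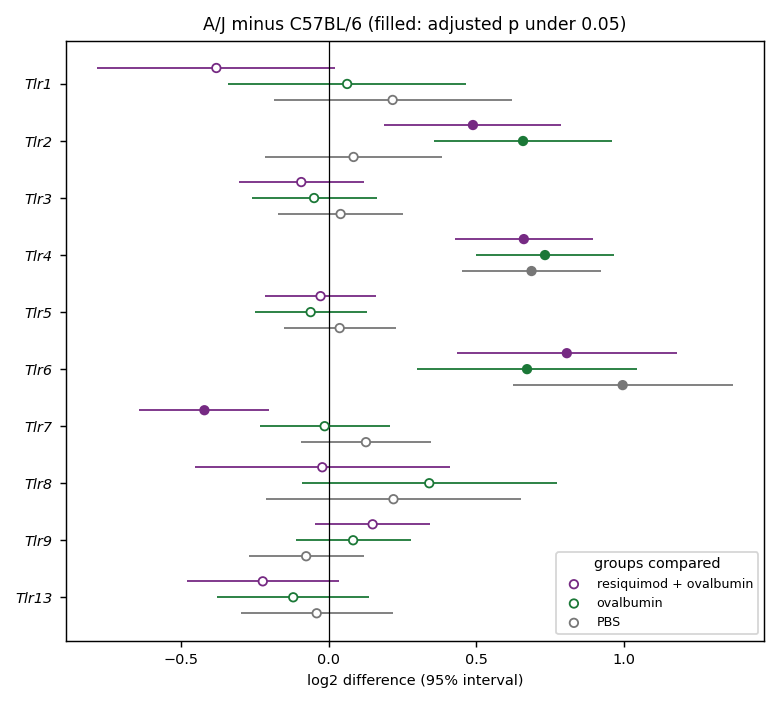
Points give A/J minus C57BL/6 on the log2 scale with the 95% interval, for resiquimod with ovalbumin (purple), ovalbumin (green) and PBS (grey). Filled points passed an adjusted p of 0.05: Tlr4 and Tlr6 under all 3 treatments at 0.66 to 1.00, Tlr2 under both ovalbumin treatments, and Tlr7, lower in A/J, with resiquimod. Each gene is shown by its main probe set, and the other Tlr4 probe sets were not called.

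In order of level over the 6 groups, Tlr13 and Tlr7 ran in the same sequence at the top, with C57BL/6 resiquimod lungs first and A/J resiquimod lungs second. For Tlr13 these neighbours (7.38 ± 0.06 and 7.15 ± 0.13, SD) did not differ by the test, and for Tlr7 (6.11 ± 0.25 and 5.69 ± 0.09) they did. Next in both came C57BL/6 ovalbumin lungs and A/J ovalbumin lungs (5.97 ± 0.18 and 5.85 ± 0.17 for Tlr13, 5.03 ± 0.13 and 5.02 ± 0.06 for Tlr7), whose arrays overlapped. Tlr4 by its main probe set ran otherwise: A/J ovalbumin (7.05 ± 0.22), A/J resiquimod (6.77 ± 0.05), A/J PBS (6.55 ± 0.15), C57BL/6 ovalbumin (6.32 ± 0.13), C57BL/6 resiquimod (6.11 ± 0.05) and C57BL/6 PBS (5.87 ± 0.17). No step between resiquimod and a neighbour of the same strain in that order was called.

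Tlr3, Tlr5, Tlr8 and Tlr9 were not called in any of the 11 comparisons. Group means of Tlr3 lay between 6.62 and 6.91 and those of its other probe set, 1422781_at, between 5.46 and 5.69. Group means of Tlr5 lay between 4.83 and 5.01, those of Tlr8 between 3.57 and 3.91, and those of Tlr9 between 5.06 and 5.25. The SD within a group reached 0.16 for Tlr3, 0.18 for Tlr5, 0.46 for Tlr8 and 0.17 for Tlr9.

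As a description over 18 arrays that share the 6 groups, Tlr13 ran with Tlr7 at r = 0.93 and with Tlr1 at r = 0.87, and Tlr7 with Tlr1 at r = 0.88. Tlr4, Tlr2 and Tlr6 ran with one another at r between 0.65 and 0.71. The 5 genes most like Tlr13 were Cytip, Fcgr1, Klrg1, Ebi3 and H2-K1 (r from 0.967 to 0.977). Those most like Tlr7 were Plcl2, Themis2, Spn, Klrg1 and Il18rap (0.948 to 0.965), and those most like Tlr1 were Lcp2, Ptprc, Tnfrsf1b, Ikzf1 and Cd72 (0.958 to 0.965). For Tlr2 they were Il1a, Slc31a2, Cxcl3, Csf2rb and Csf2rb2 (0.865 to 0.888), for Tlr4 Hmga2-ps1, Timm10, Pgam1, Frem1 and Atp6v0b (0.911 to 0.922), and for Tlr6 Cpsf4, Krt79, Mtrr, Tti2 and Clmp (0.905 to 0.924). Fcgr1 is a macrophage Fc receptor, Klrg1 and Il18rap are known from cytotoxic lymphocytes, Ptprc is the pan-leukocyte antigen, and Cd72 is a B-cell antigen. The best matches of Tlr3, Tlr5, Tlr8 and Tlr9 reached 0.782, 0.835, 0.737 and 0.761.

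Several lists of cell type markers moved with the same arrays. Of 11 measured macrophage and monocyte markers, 7 were called higher in A/J and 8 in C57BL/6 resiquimod lungs against ovalbumin lungs, with median changes of 0.48 and 0.56. Their mean level was 9.18 to 9.39 in A/J and 9.13 to 9.18 in C57BL/6 resiquimod lungs, against 8.53 to 8.69 and 8.25 to 8.44 in ovalbumin lungs and 8.15 to 8.26 and 8.02 to 8.18 in PBS lungs. All 7 markers of natural killer and cytotoxic cells were called higher in each strain, with median changes of 2.95 and 3.31. Of 5 B-cell markers, 0 were called in A/J and 5 in C57BL/6, with median changes of 0.65 and 1.53. Tested directly, the difference between the strains' changes was called for 0 of these 5. Over all genes, 4.38% were called higher in A/J and 5.80% in C57BL/6.

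The array with low Tlr1 and Tlr2 among the A/J resiquimod lungs, replicate 3, was also the lowest of these 3 arrays in the mean of 7 immune lists: B-cell (6.51 against 7.36 and 7.18 on the other two), T-cell, natural killer, macrophage, neutrophil, dendritic and plasmacytoid dendritic markers. It was not the lowest for eosinophil markers. Neutrophil markers were called higher in 4 of 6 in each strain (median changes 0.96 and 0.60). Dendritic-cell markers were called lower in 5 of 7 in A/J and 2 of 7 in C57BL/6 (median changes -0.47 and -0.35). Markers of plasmacytoid dendritic cells, a type rich in Tlr7 and Tlr9, had median changes of -0.043 and -0.019, with 0 of 6 and 1 of 6 called. Of 5 fibroblast markers, 3 were called lower and 1 higher in A/J and 2 lower in C57BL/6 (median changes -1.72 and -0.79), with the collagens Col1a1 and Col3a1 lower in both. Eosinophil markers were called lower in 4 of 5 in A/J (median -0.54), and 1 was called lower and 1 higher in C57BL/6 (median 0.054). Of 8 lung epithelial markers, 1 was called higher in A/J and 3 lower in C57BL/6 (median changes -0.064 and -0.084). Of 5 T-cell markers, 1 was called lower in A/J and 0 either way in C57BL/6 (median changes -0.22 and 0.21). Of 6 endothelial markers, 2 were called higher in each strain (median changes 0.18 and 0.050). Over all genes, 5.39% were called lower in A/J and 4.60% in C57BL/6. With ovalbumin alone, macrophage markers were called higher in 4 of 11 in A/J and 1 of 11 in C57BL/6 (median changes 0.48 and 0.27), where 3.20% and 1.44% of all genes were called higher. The part of cell numbers in the receptor changes was not tested.

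**Figure D4:**
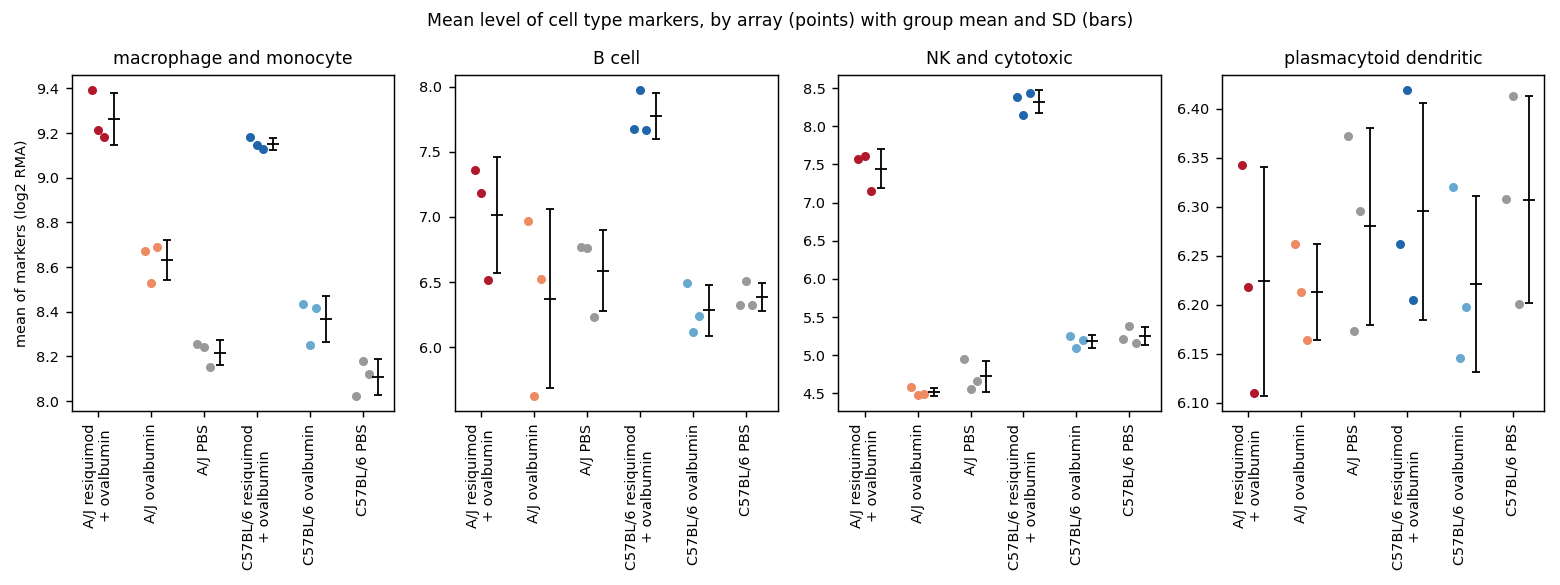
Each panel plots the mean log2 level of the measured markers of 1 cell type on each array (points), with the group mean and SD (bars, n = 3). The macrophage and the natural killer panels place all 6 resiquimod arrays above the rest, the B-cell panel has 1 low A/J resiquimod array at 6.51, and the plasmacytoid panel shows overlapping groups.

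Among the proteins that present ligand to the surface receptors, Cd14 and Ly86 moved. Of 7 measured co-receptors, 1 was called higher in each strain with resiquimod against ovalbumin alone, where 4.38% of all genes were called higher in A/J and 5.80% in C57BL/6. These were Cd14, which hands lipopolysaccharide to Tlr4, in A/J (0.63 ± 0.12) and Ly86, the partner of the receptor homologue Cd180, in C57BL/6 (0.66 ± 0.11). The list's median change was 0.22 in A/J and 0.11 in C57BL/6. With ovalbumin against PBS, 3 were called higher in A/J, namely Ly86 (0.63 ± 0.11), Cd14 (0.54 ± 0.12) and Ly96 (0.52 ± 0.11), and 1 in C57BL/6, Cd14 (0.56 ± 0.12), with list medians of 0.088 and 0.071. Over all genes, 3.20% and 1.44% were called higher in that comparison. Between strains, Ly96 and Lbp, the serum lipopolysaccharide-binding protein, were lower in A/J under all 3 treatments. Ly96 was at -0.48, -0.38 and -0.73 and Lbp at -0.54, -0.66 and -0.61 in resiquimod, ovalbumin and PBS lungs.

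Of the 8 measured genes that transport or process the endosomal receptors, 4 were called higher in C57BL/6 and 1 in A/J with resiquimod against ovalbumin alone, where 5.80% and 4.38% of all genes were called higher. The strain difference in that effect was called for 0 of the 8 in limma, and for 1.24% of all genes. In C57BL/6 these were Slc15a4, an endolysosomal transporter needed for Tlr7 and Tlr9 responses (0.49 ± 0.10), Unc93b1, the chaperone that carries these receptors to endosomes (0.47 ± 0.078), and the receptor-processing proteases Lgmn (0.44 ± 0.078) and Ctss (0.30 ± 0.079). In A/J it was the protease Ctsl (0.36 ± 0.092), while Ctss was at -0.17 ± 0.079 and Ctsb at -0.12 ± 0.064, neither called. The list's median change was 0.0055 in A/J and 0.23 in C57BL/6, beside -0.0026 and -0.022 over all genes. With ovalbumin against PBS, Ctss (0.60 ± 0.079), Lgmn (0.36 ± 0.078) and Ctsb (0.33 ± 0.064) were called higher in A/J and Ctss (0.36 ± 0.079) in C57BL/6. Lgmn was higher in A/J than in C57BL/6 under all 3 treatments, at 0.33, 0.60 and 0.43 in resiquimod, ovalbumin and PBS lungs.

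Of 13 measured adaptors and kinases, 1 was called higher with resiquimod against ovalbumin in A/J, the kinase Irak2 (0.31 ± 0.089), and 0 in C57BL/6 in limma, with list medians of 0.12 and 0.11. Over all genes, 4.38% were called higher in A/J and 5.80% in C57BL/6. The kinase Ikbke had the highest change of the list, 0.62 ± 0.22 in A/J and 0.59 ± 0.22 in C57BL/6, and was not called (limma adjusted p = 0.116 and 0.123). Against PBS, 3 of 13 were called higher with resiquimod in each strain, where 5.86% of all genes were called higher in A/J and 9.61% in C57BL/6. These were Ikbke (0.86 ± 0.22), Myd88 (0.35 ± 0.089) and Irak2 (0.31 ± 0.089) in A/J, and Ikbke (0.92 ± 0.22), Myd88 (0.40 ± 0.089) and Ikbkb (0.29 ± 0.075) in C57BL/6. With ovalbumin against PBS, 0 were called in either strain, with medians of -0.0042 and 0.037. Over all genes, 3.20% were called higher and 1.18% lower in A/J, and 1.44% and 0.154% in C57BL/6. Between strains, Tirap, the bridging adaptor of Tlr2 and Tlr4, was higher in A/J by 0.63, 0.60 and 0.45, and the ubiquitin ligase Traf6 was lower, at -0.34, -0.49 and -0.40, in resiquimod, ovalbumin and PBS lungs.

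Among 8 measured transcription factors, Irf7, which drives type I interferon genes downstream of Tlr7 and Tlr9, was called higher with resiquimod against ovalbumin in both strains. It increased by 1.19 ± 0.12 in A/J and 1.10 ± 0.12 in C57BL/6 (limma adjusted p = 7.7e-06 and 1.7e-05), to mean levels of 7.23 and 7.83. In C57BL/6, Irf5 (0.57 ± 0.16) and Irf8 (0.52 ± 0.13) were also called higher. That made 1 of 8 in A/J and 3 of 8 in C57BL/6, where 4.38% and 5.80% of all genes were called higher. Of 11 measured negative regulators, Irak3, the inhibitory kinase homologue, was called higher (0.97 ± 0.19 in A/J and 0.64 ± 0.19 in C57BL/6) and Socs1 lower (-0.71 ± 0.12 and -0.48 ± 0.12). Thus 1 of 11 was called higher and 1 lower in each strain. Of all genes, 4.38% were called higher and 5.39% lower in A/J, and 5.80% and 4.60% in C57BL/6. Socs1 had been called higher with ovalbumin against PBS (0.79 ± 0.12 and 0.73 ± 0.12), a comparison that shares the ovalbumin arrays with the other. With ovalbumin, 2 of 11 were called higher in A/J and 1 in C57BL/6, where 3.20% and 1.44% of all genes were.

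Of 17 target genes, the chemokine Ccl5 had the widest change with resiquimod against ovalbumin, at 2.95 ± 0.15 in A/J and 3.46 ± 0.15 in C57BL/6 (limma adjusted p = 6.0e-09 and 3.0e-10). In A/J, Ccl3 was also called higher (1.33 ± 0.31) while Cxcl10 (-1.17 ± 0.27) and Ccl2 (-0.80 ± 0.17) were called lower. Ccl3 read 5.31, 6.16 and 4.24 in A/J resiquimod lungs and 3.64, 4.01 and 4.09 in A/J ovalbumin lungs. In C57BL/6, Ccl3 (1.75 ± 0.31), Cxcl9 (1.52 ± 0.17) and Ccl4 (1.27 ± 0.24) were called higher and 0 lower. In all, 2 were called higher and 2 lower in A/J, and 4 higher in C57BL/6. Of all genes, 4.38% were called higher and 5.39% lower in A/J, and 5.80% and 4.60% in C57BL/6. The list medians were 0.14 and 0.030, beside -0.0026 and -0.022 over all genes. With ovalbumin against PBS, Cxcl9 (3.10 ± 0.17 and 2.35 ± 0.17), Cxcl10 (2.10 ± 0.27 and 1.68 ± 0.27) and Ccl2 (1.69 ± 0.17 and 1.16 ± 0.17) were called higher in A/J and C57BL/6, and Il6 in A/J (1.23 ± 0.21). That made 4 of 17 in A/J and 3 of 17 in C57BL/6, where 3.20% and 1.44% of all genes were called higher.

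Of 10 measured sensors outside the family, Zbp1, a sensor of Z-form nucleic acid, was called higher with resiquimod in C57BL/6 (0.97 ± 0.20), as was Nod1 (0.28 ± 0.069). In A/J, Sting1, the adaptor of cytosolic DNA sensing, was called lower (-0.43 ± 0.084). That made 2 of 10 higher in C57BL/6 and 1 of 10 lower in A/J. Of all genes, 5.80% were called higher in C57BL/6 and 5.39% lower in A/J. Sting1 was called higher with ovalbumin against PBS in A/J (0.74 ± 0.084) and C57BL/6 (0.70 ± 0.084), 1 of 10 in each, where 3.20% and 1.44% of all genes were called higher. The list medians with resiquimod against ovalbumin were -0.0084 in A/J and 0.12 in C57BL/6, beside -0.0026 and -0.022 over all genes.

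**Figure D5:**
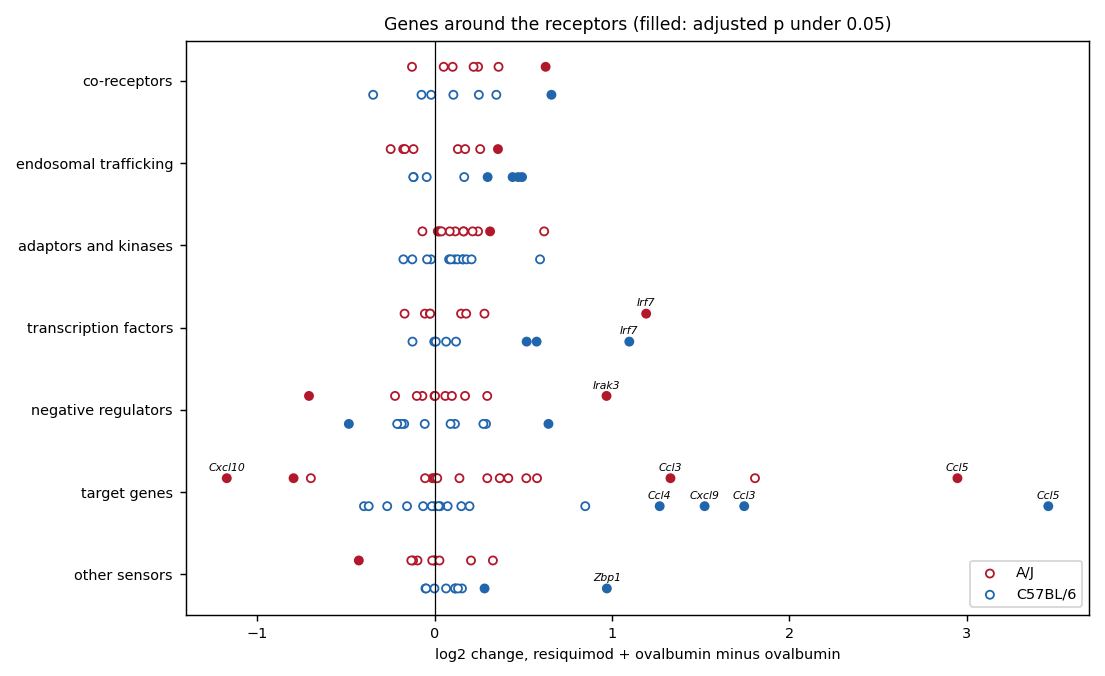
Each point is 1 gene of a list (rows), placed by its log2 change in resiquimod with ovalbumin minus ovalbumin lungs of A/J (red) or C57BL/6 (blue), and filled where the adjusted p was under 0.05. Ccl5 at 2.95 and 3.46, Irf7 at 1.19 and 1.10 and Irak3 at 0.97 and 0.64 stand to the right in both strains, while Cxcl10 falls to -1.17 in A/J.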

How the data were processed

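RNA from whole lungs of 18 mice was measured on 1-colour Affymetrix arrays. The deposited values are log2 expression per probe set; RMA and the affy package are named, without versions, per the submitters' processing notes. The genome build behind the annotation is not given in the sources used here. Of 45101 probe sets, 64 controls were dropped and 45037 tested. GEO's platform annotation names 1 gene for 34945 of these, several for 932 and none for 9160. No value was changed or filtered, and the number of arrays limits the precision.

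Groups came from the sample labels, 3 arrays each. Nothing in the labels says that replicate numbers pair samples, and p-values measure the spread between mice. A limma 3.58.1 model (R 4.3.3) of 6 group means was fitted over all probe sets, with 12 residual and 4.30 prior degrees of freedom, two-sided tests and Benjamini-Hochberg adjustment per comparison, called under 0.05. Counts of genes use the probe set with the highest mean. On simulated data with the same group sizes the model recovered most of the largest changes put in. The simulated noise was independent for each probe set, and changes as small as most of those of the receptors were not simulated. All 10 receptors are named, with up to 4 called genes of each list per comparison and the 5 genes most correlated with each receptor. The members and lists were chosen with earlier results of these data known. Levels are compared within a probe set only. Alternatives, run for the receptors only, are given in the closing section.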

Additional observations from a re-analysis of the deposited data

Results flagged for a closer look

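Cxcl9, a chemokine induced by interferon gamma and one of the 17 target genes, was the only receptor or pathway gene described here with a called strain difference in a treatment effect, tested directly. Over all genes, 225 had one for resiquimod, 3 of the 5 eosinophil and 1 of the 7 dendritic-cell markers among them. The change of Cxcl9 with resiquimod against ovalbumin alone differed by -1.16 ± 0.24 on the log2 scale, A/J minus C57BL/6 (limma adjusted p = 0.0377). In A/J it read 7.40, 7.62 and 7.72 in resiquimod lungs and 6.98, 7.49 and 7.16 in ovalbumin lungs, a difference of 0.37 ± 0.17 that was not called (limma adjusted p = 0.255). In C57BL/6 it read 7.91, 7.72 and 8.16 in resiquimod lungs and 6.13, 6.32 and 6.78 in ovalbumin lungs, an increase of 1.52 ± 0.17. The ovalbumin lungs themselves differed by 0.80 ± 0.17 between A/J and C57BL/6. These Cxcl9 results were not rerun in the alternatives below.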

How the results depend on the processing

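The alternatives were run for the 10 receptors only, and the calls of pathway and marker genes were not rerun. The 4 called resiquimod changes of Tlr13 kept their call and direction in every alternative run and stayed between 1.30 and 1.86 outside the fits that leave out 1 array. With ovalbumin against PBS, the count of receptors called in A/J was 1 in the fit as described. It was 2 with the replicate block, without low probe sets, with an intensity trend, with 1 probe set per gene and with arrays centred on their median, Tlr2 being added each time. With the groups compared alone it stayed at 1, but Tlr2 was called in place of Tlr4. The fit without the arrays with squamous transcripts, a choice made after seeing the data, is set apart below. In C57BL/6 the count of 0 became 1 (Tlr4) with the replicate block, without low probe sets and with 1 probe set per gene. The fit without the arrays with squamous transcripts kept 10 arrays, with only replicate 2 of the A/J ovalbumin and of the C57BL/6 PBS group. Several receptor calls were not kept in it, which cannot be told apart from the loss of arrays. With squamous transcripts as a covariate on all 18 arrays, also chosen after seeing the data, no receptor call between groups changed. With the groups compared alone, the count was 2 (4 as described) for resiquimod against PBS in A/J and 2 (4) for the strains among resiquimod lungs. When 1 array was left out, the counts ranged from 0 to 2 and 0 to 1 for ovalbumin against PBS in A/J and C57BL/6, 2 to 3 and 3 to 3 for resiquimod against ovalbumin, 2 to 4 and 3 to 3 for resiquimod against PBS, and 2 to 4, 2 to 3 and 2 to 2 for the strains among resiquimod, ovalbumin and PBS lungs. The Tlr4 strain difference turned to -0.15 (ovalbumin) and -0.055 (resiquimod) by probe set 1442827_at; the cause was not tested. Same-numbered arrays of different groups deviated together at a median r of 0.18 (-0.63 to 0.61, 27 of 45 pairs above 0.1), and 9 of 18 arrays correlated best with their own number. Squamous transcripts were high on replicate 1 of every group except C57BL/6 resiquimod. What same-numbered arrays share was not tested. The labels name no pairing, so the main fit took none, and the replicate block is 1 of the alternatives above. Depth has no counterpart here: Tlr8 and the other Tlr7 probe sets lie low, which limits what they can show.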
